A study of Mus musculus with 16 samples.

Results

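Leukocyte marker genes, chosen by symbol for 8 classes of white blood cell transcripts, were followed across kidneys of wildtype (WT) and IL-33-deficient mice with and without unilateral ureteral obstruction (UUO). The list held 48 symbols, of which 45 were present among the 18132 genes measured and 3 (*Cd79a*, *Gzma* and *Spi1*) were not found under those symbols. The classes were pan-leukocyte genes (5 of 5 measured), macrophage and monocyte genes (11 of 11), phagocyte signalling and oxidase genes (10 of 11), neutrophil genes (7 of 7), T cell genes (5 of 5), B cell genes (2 of 3), NK and cytotoxic genes (3 of 4) and mast cell genes (2 of 2). The members were picked by symbol, without a threshold on any measured value.

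In UUO the left ureter is closed with a clip, and the obstructed kidney develops tubular injury and inflammation. RNA was taken from whole kidney 24 h after the obstruction and hybridised to Illumina MouseRef-8 BeadChips, 1 array for each kidney. The WT groups were 2 controls (arrays 3811 and 3812) and 7 obstructed kidneys (3818, 3819, 3820 and 3892 to 3895). The IL-33-deficient groups were 2 controls (3813 and 3814) and 5 obstructed kidneys (3821, 3822, 3897, 3898 and 3899). The labels assign the obstructed kidneys to set 1 (3 WT, 2 IL-33-deficient) or set 2 (4 WT, 3 IL-33-deficient) and state no set for the controls. The WT animals were C57/BL6, and the IL-33-deficient animals lacked *Il33* in every cell from the germline on and had been backcrossed to C57BL/6J BomTac. The methods give an age of 8 weeks unless stated otherwise. Control kidneys were untreated per the labels, so anaesthesia and surgery cannot be told apart from obstruction, and any effect of the set cannot be told apart from treatment in the comparisons with controls.

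White blood cells enter an obstructed kidney from the blood, neutrophils within hours and monocytes soon after, while resident macrophages are present beforehand. Neutrophils carry the calcium-binding pair S100A8 and S100A9 as the most plentiful proteins of their cytosol, macrophages carry CD68 in their lysosomes, and both signal through the adaptor chains FCER1G and TYROBP. Bulk kidney RNA cannot tell fewer cells of a type apart from less RNA per cell. Nor does it show which cells a transcript came from.

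Promoter sequence is shown for 3 members whose level rose after UUO, 1 from each of 3 classes, to show where PU.1 and AP-1 elements, known from myeloid genes, lie in them. These are the 250 bases upstream of the transcription start, written 5′ to 3′ on the strand of the gene, from the RefSeq annotation of GRCm38.p6. Capitals mark GAGGAA, the core bound by the myeloid factor PU.1, and TGACTCA, the AP-1 element, each on either strand, where TTCCTC and TGAGTCA are their reverse complements. *Cd68* lies at chr11:69666171-69666420 on the minus strand, *Laptm5* at chr4:130913066-130913315 on the plus strand and *S100a8* at chr3:90668821-90669070 on the plus strand.
Cd68: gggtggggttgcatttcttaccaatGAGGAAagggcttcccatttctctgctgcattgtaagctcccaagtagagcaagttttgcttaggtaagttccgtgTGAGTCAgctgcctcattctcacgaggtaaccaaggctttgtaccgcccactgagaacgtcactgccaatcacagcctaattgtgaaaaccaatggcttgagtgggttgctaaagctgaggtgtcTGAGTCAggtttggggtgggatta
Laptm5: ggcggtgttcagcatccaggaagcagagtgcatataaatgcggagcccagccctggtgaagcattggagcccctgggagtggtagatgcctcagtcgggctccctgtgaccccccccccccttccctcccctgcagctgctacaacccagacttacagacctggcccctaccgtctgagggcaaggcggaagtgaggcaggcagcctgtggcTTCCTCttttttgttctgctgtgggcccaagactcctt
S100a8: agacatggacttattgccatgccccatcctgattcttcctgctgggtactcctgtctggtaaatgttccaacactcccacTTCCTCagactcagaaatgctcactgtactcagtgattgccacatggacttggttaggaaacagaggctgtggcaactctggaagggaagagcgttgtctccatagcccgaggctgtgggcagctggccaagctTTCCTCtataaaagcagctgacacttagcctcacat
The *Cd68* window held 1 PU.1 core and 2 AP-1 elements, the *Laptm5* window 1 PU.1 core and the *S100a8* window 2. Windows were at hand for 36 members, 41 windows in all since some genes have several starts, and 21 of these (51.2%) held GAGGAA, against 23.3% of the 32851 windows of all genes. TGACTCA was in 2 member windows (4.88%) and in 4.46% of all windows. A match of letters describes the sequence and does not show that a factor was bound.

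Levels are given as log2 intensity, where the lowest value in the data was 6.58 and the median gene lay at 7.05. Array medians before log2 lay between 132 and 133, and arrays of a group correlated with each other at 0.972 to 0.997. *Il33*, the deleted gene, lay at 6.80 to 7.02 on all 7 arrays labelled IL-33-deficient and at 7.62 to 9.57 on the 9 WT arrays, so that the genotype labels and the arrays matched. By mean level over all 16 arrays, obstructed ones included, 22 of the 45 members were brighter than the median gene and 23 were dimmer. The dim members spanned 6.65 to 7.33 over all arrays, close to the lowest values, where small changes are not detectable.

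**Figure D1:**
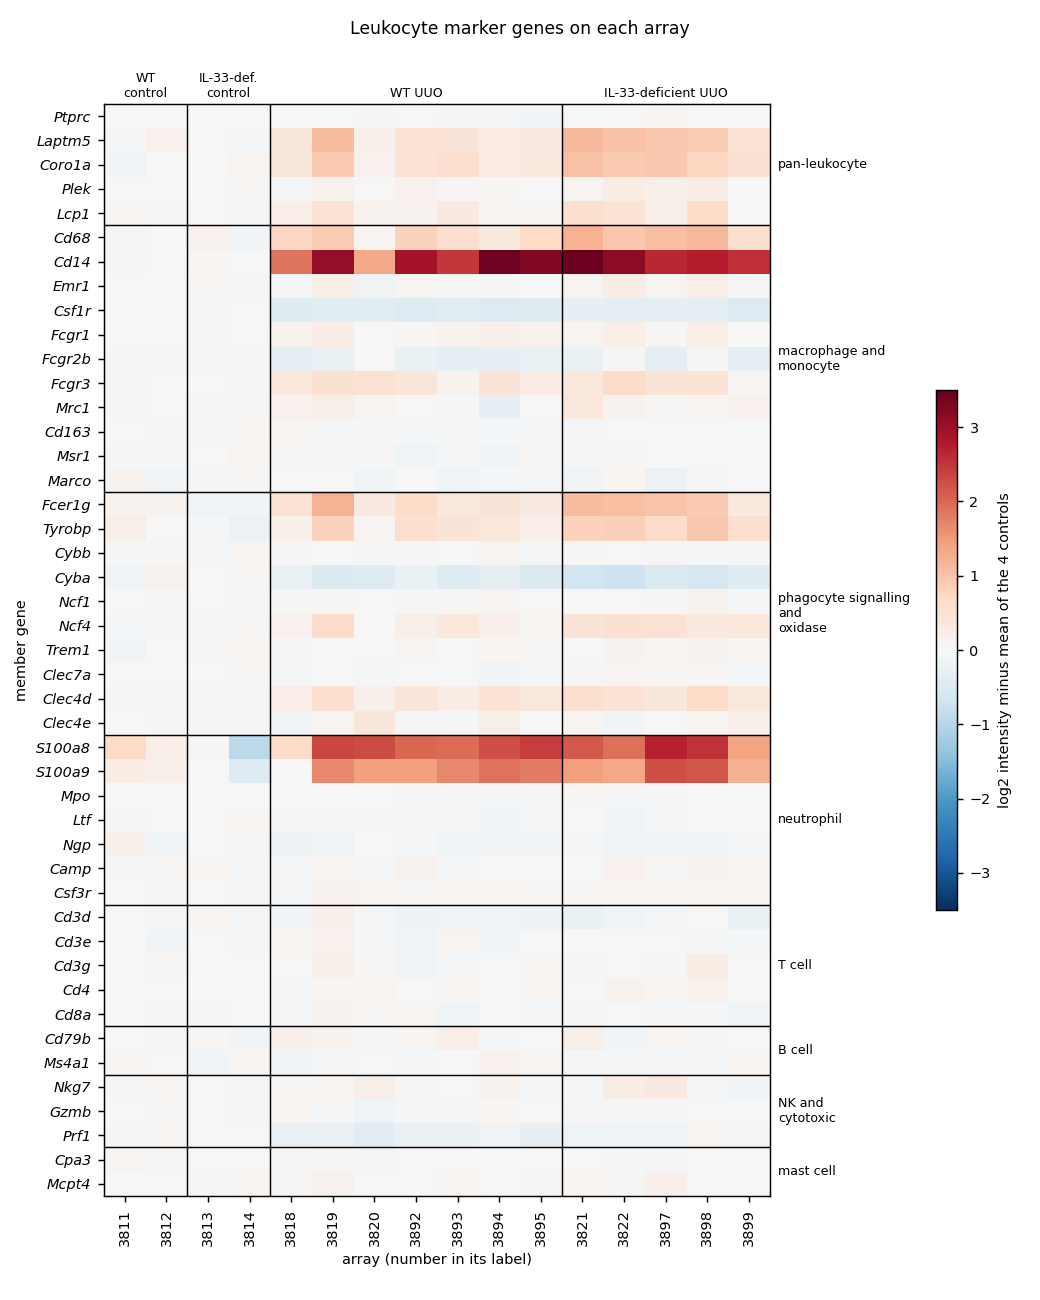
Each row is 1 of the 45 members and each column 1 of the 16 arrays, grouped by genotype and treatment, with colour giving the log2 intensity minus the mean of the 4 control arrays. Red rows appear among the pan-leukocyte, macrophage, phagocyte and neutrophil genes, while T cell, B cell and mast cell rows are pale on every array.

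The members that changed after obstruction were pan-leukocyte, macrophage, phagocyte and neutrophil genes and the cytotoxic gene *Prf1*. In WT kidneys 8 of 45 members (17.8%) changed at an adjusted p under 0.05 in limma, close to the 15.2% of all genes called, with 5 higher (6.97% of all genes) and 3 lower (8.22%). In IL-33-deficient kidneys 13 of 45 (28.9%) changed, against 21.8% of all genes, with 11 higher (10.6%) and 2 lower (11.2%). All of the 14 members called in either genotype were among the 22 brighter ones. Of those 22, 8 (36.4%) were called in WT and 13 (59.1%) in IL-33-deficient kidneys, and of all brighter genes 29% and 41.2%. Brightness was judged on the same arrays, so a rise after UUO itself helps a gene to count as brighter. *Clec4d*, for example, had control means of 6.96 in WT and 6.86 in IL-33-deficient kidneys, below the median gene at 7.05. The median log2 fold change of the members was 0.03 in WT and 0.04 in IL-33-deficient kidneys, against -0.00076 and -0.00057 over all genes. Members were called in both genotypes in 7 cases, in WT alone in 1 and in IL-33-deficient kidneys alone in 6, and 31 were called in neither. The groups of arrays did not overlap for 11 members in WT (21.4% of all genes) and for 20 in IL-33-deficient kidneys (35% of all genes).

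The count of WT calls was 3 without WT control array 3811 or 3812, 5 without obstructed array 3892, and 1 with the obstructed kidneys of set 1 alone. *Cd14* and *Csf1r* kept their WT call whichever array was left out, while *Cd68*, *Coro1a*, *Clec4d*, *S100a8* and *Prf1* lost it on leaving out control 3811 and also on leaving out 3812, and *Cyba* on leaving out 3812. In IL-33-deficient kidneys *Fcgr3* and *Ncf4* lost their calls on leaving out control 3813 and also on leaving out 3814, and *S100a9* on leaving out 3814. Fits without a control array leave 1 control of the genotype, assumed to vary like the other groups. Their log2 fold changes kept their direction. In WT without 3811 they were 0.58 for *Cd68*, 0.47 for *Coro1a*, 0.32 for *Clec4d*, 1.76 for *S100a8* and -0.31 for *Prf1*. Over all alternatives the WT value ran from -0.50 to -0.25 for *Cyba*, from 1.31 to 1.89 for *S100a8* and from -0.45 to -0.20 for *Prf1*. Some calls were also lost on leaving out 1 obstructed kidney. In WT these were *Coro1a* (3892 or 3893), *Cd68* (3892 or 3895) and *Clec4d* (3892, 3894 or 3895). In IL-33-deficient kidneys they were *Fcgr3* (3822, 3897 or 3898) and *Ncf4* (3822 or 3897).

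The macrophage and monocyte class had 3 of 11 members (27.3%) called in WT and 4 of 11 (36.4%) in IL-33-deficient kidneys, against 15.2% and 21.8% of all genes. In each genotype 1 of these calls was a fall. Of the 11 members 8 were brighter than the median gene, and of all brighter genes 29% and 41.2% were called. *Cd14*, the co-receptor that hands bacterial lipopolysaccharide to Toll-like receptor 4, gave the largest rise of any member in both genotypes. Its level was 7.64 and 7.69 in the WT controls, 7.74 and 7.66 in the IL-33-deficient controls, 9.0 to 11.07 with a median of 10.60 in WT kidneys after UUO, and 11.12, 10.81, 10.32, 10.44 and 10.25 in IL-33-deficient kidneys after UUO. Every obstructed kidney lay above every control, and the genotypes overlapped. *Cd14* rose 6.20-fold in WT kidneys (log2 fold change 2.63 ± 0.42, SE, adjusted p = 0.00104) and 7.41-fold in IL-33-deficient kidneys (2.89 ± 0.44, adjusted p = 0.000287).

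*Cd68*, the lysosomal glycoprotein of macrophages, read 7.09 and 7.16 in WT controls, 7.29 and 7.06 in IL-33-deficient controls, 7.26 to 8.04 with a median of 7.85 in WT kidneys after UUO, and 8.38, 8.09, 8.19, 8.30 and 7.72 in IL-33-deficient kidneys after UUO. WT array 3820 lay between the WT controls and the other obstructed WT kidneys, and all 5 obstructed IL-33-deficient kidneys exceeded their controls. The rise was 1.54-fold in WT (0.62 ± 0.18, adjusted p = 0.0328) and 1.94-fold in IL-33-deficient kidneys (0.96 ± 0.19, adjusted p = 0.00198).

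*Csf1r*, the receptor for the macrophage growth factor CSF1, went the other way. It read 7.85 and 7.88 in WT controls, 7.90 and 7.85 in IL-33-deficient controls, 7.41 to 7.49 with a median of 7.45 in WT kidneys after UUO, and 7.58, 7.53, 7.55, 7.53 and 7.41 in IL-33-deficient kidneys after UUO. No obstructed kidney reached a control. The fall was 1.33-fold in WT (-0.41 ± 0.04, adjusted p = 4.47e-05) and 1.28-fold in IL-33-deficient kidneys (-0.36 ± 0.04, adjusted p = 7.04e-05).

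*Emr1*, which encodes the F4/80 antigen of mouse macrophages, read 7.29 and 7.27 in WT controls, 7.33 and 7.24 in IL-33-deficient controls, 7.17 to 7.48 with a median of 7.27 in obstructed WT kidneys, and 7.36, 7.53, 7.37, 7.50 and 7.24 in obstructed IL-33-deficient kidneys. These groups overlapped, and *Emr1* was not called in WT (0.02 ± 0.08, adjusted p = 0.912) or in IL-33-deficient kidneys (0.12 ± 0.08, adjusted p = 0.384). *Fcgr3*, an activating receptor for antibody, rose in IL-33-deficient kidneys (0.41 ± 0.13, adjusted p = 0.0292) and had a similar value that was not called in WT (0.37 ± 0.12, adjusted p = 0.0557). The other members of the class were not called, with log2 fold changes of -0.24 to 0.10 in WT and -0.21 to 0.14 in IL-33-deficient kidneys. The lowest of these in both genotypes was *Fcgr2b*, an inhibitory receptor for antibody. Its control means were 8.13 in both genotypes, and its means after UUO 7.90 in WT and 7.93 in IL-33-deficient kidneys. Its IL-33-deficient groups did not overlap, as for 35% of all genes, and its WT groups did. The scavenger receptors *Cd163*, *Msr1* and *Marco*, all dimmer than the median gene, and the mannose receptor *Mrc1* were also among those not called.

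**Figure D2:**
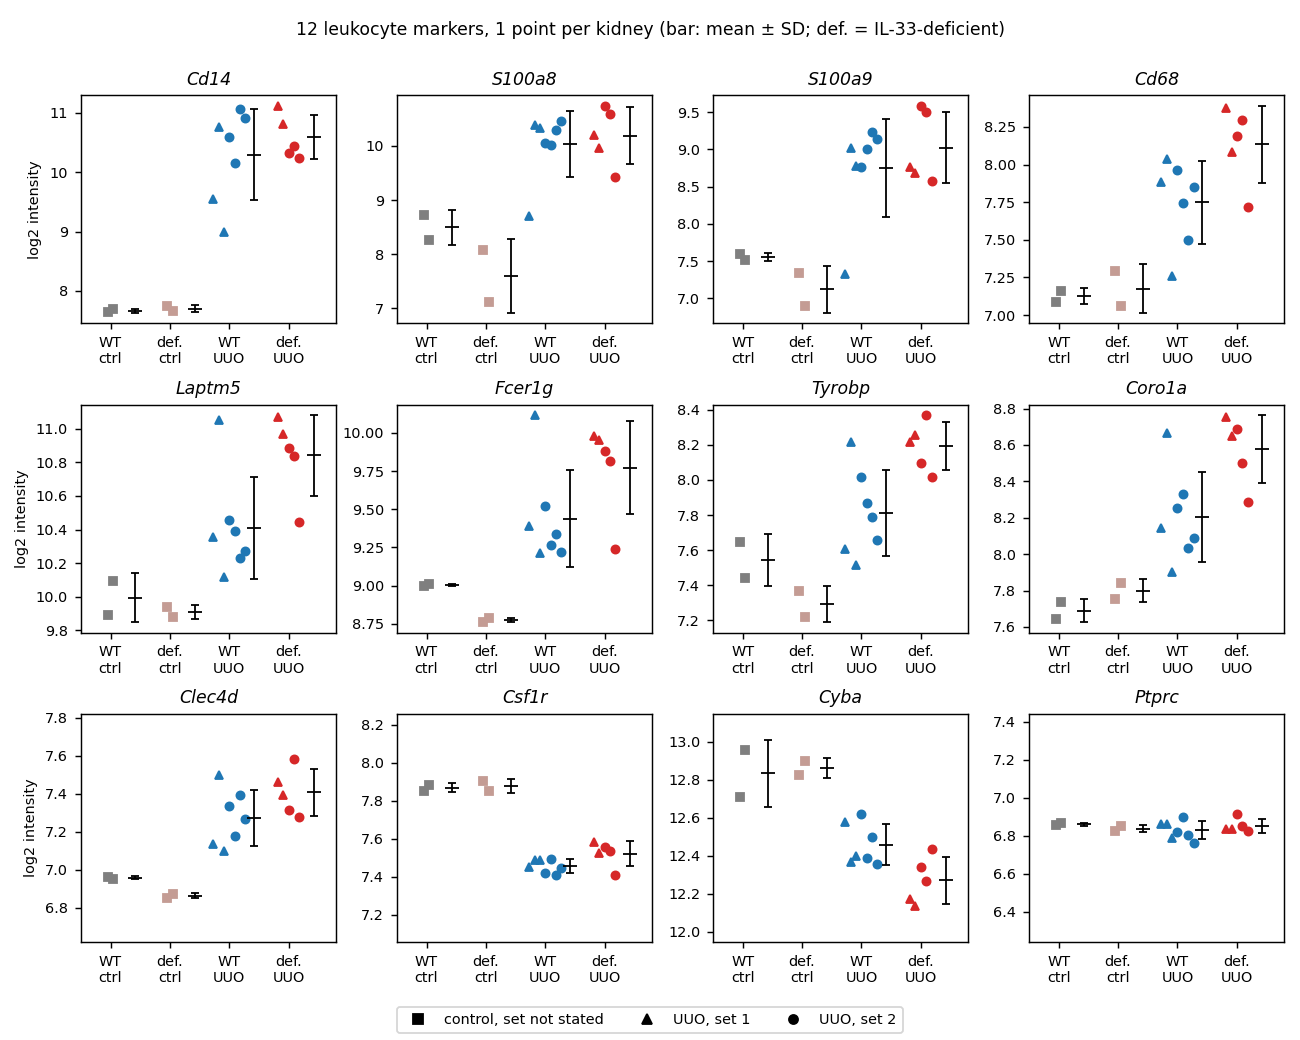
Each panel shows 1 member, each point the log2 intensity of 1 kidney, and each bar the mean ± SD of its group, with marker shape for the set and vertical axes that differ between panels. *Cd14* and *S100a8* rise by more than 1 log2 unit in both genotypes, while *Csf1r* is lower in all obstructed kidneys than in any control.

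Of the 7 neutrophil genes 1 (14.3%) was called in WT and 2 (28.6%) in IL-33-deficient kidneys, near the shares of all genes, and these were the S100 pair. *S100a8* read 8.72 and 8.27 in WT controls, 8.09 and 7.12 in IL-33-deficient controls, 8.71 to 10.47 with a median of 10.29 in WT kidneys after UUO, and 10.20, 9.97, 10.74, 10.59 and 9.42 in IL-33-deficient kidneys after UUO. Of the obstructed WT kidneys only array 3818 came down into the range of the controls. *S100a8* rose 2.90-fold in WT (1.54 ± 0.41, adjusted p = 0.0207) and 5.98-fold in IL-33-deficient kidneys (2.58 ± 0.43, adjusted p = 0.000555), where 1 of the 2 controls, 3814, was the lowest array of all.

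*S100a9*, its partner in the heterodimer calprotectin, read 7.59 and 7.52 in WT controls, 7.34 and 6.89 in IL-33-deficient controls, 7.32 to 9.23 with a median of 9.01 in obstructed WT kidneys, and 8.77, 8.68, 9.59, 9.50 and 8.58 in obstructed IL-33-deficient kidneys. Array 3818 was the lone obstructed WT kidney that was not above the WT controls. The value was 1.19 ± 0.40 in WT, which did not pass (adjusted p = 0.0569), and *S100a9* rose 3.75-fold in IL-33-deficient kidneys (1.91 ± 0.42, adjusted p = 0.00356). The other 5 members of the class, the granule genes *Mpo*, *Ltf*, *Ngp* and *Camp* and the growth factor receptor *Csf3r*, were not called, with log2 fold changes of -0.14 to 0.03 in WT and -0.05 to 0.09 in IL-33-deficient kidneys. All 5 were dimmer than the median gene, where small changes are not detectable, so they do not show whether neutrophil genes other than the S100 pair changed.

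Phagocyte signalling and oxidase genes had 2 of 10 members called in WT and 5 of 10 in IL-33-deficient kidneys, against the same 15.2% and 21.8%. In each genotype 1 of these calls was a fall. Of the 10 members 5 were brighter than the median gene, and of all brighter genes 29% and 41.2% were called. *Fcer1g*, the signalling chain shared by Fc receptors, read 9.0 and 9.01 in WT controls, 8.76 and 8.79 in IL-33-deficient controls, 9.21 to 10.12 with a median of 9.34 in obstructed WT kidneys, and 9.98, 9.95, 9.88, 9.82 and 9.24 in obstructed IL-33-deficient kidneys. Each obstructed kidney exceeded its own controls, and array 3899 stood below the other 4 of its group. *Fcer1g* rose 2.00-fold in IL-33-deficient kidneys (1.00 ± 0.22, adjusted p = 0.00367), and the WT value was 0.43 ± 0.21 (adjusted p = 0.209).

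*Tyrobp*, the adaptor also known as DAP12, read 7.65 and 7.44 in WT controls, 7.37 and 7.22 in IL-33-deficient controls, 7.52 to 8.22 with a median of 7.79 in obstructed WT kidneys, and 8.22, 8.26, 8.10, 8.37 and 8.02 in obstructed IL-33-deficient kidneys. The WT groups overlapped and the IL-33-deficient groups did not. *Tyrobp* rose 1.87-fold in IL-33-deficient kidneys (0.90 ± 0.15, adjusted p = 0.000601), with 0.27 ± 0.15 in WT (adjusted p = 0.283). *Clec4d*, a C-type lectin receptor of myeloid cells, rose in both genotypes (0.31 ± 0.09 in WT and 0.54 ± 0.10 in IL-33-deficient kidneys), and *Ncf4*, a cytosolic subunit of the phagocyte oxidase, rose in IL-33-deficient kidneys (0.40 ± 0.12).

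*Cyba*, the small membrane subunit of the oxidase, fell. It read 12.71 and 12.96 in WT controls, 12.83 and 12.90 in IL-33-deficient controls, 12.36 to 12.62 with a median of 12.40 in obstructed WT kidneys, and 12.17, 12.13, 12.34, 12.27 and 12.44 in obstructed IL-33-deficient kidneys. All obstructed kidneys lay below all controls. The fall was 1.3-fold in WT (-0.37 ± 0.09, adjusted p = 0.00989) and 1.51-fold in IL-33-deficient kidneys (-0.59 ± 0.09, adjusted p = 0.000319). The other 5 members, *Cybb*, *Ncf1*, *Trem1*, *Clec7a* and *Clec4e*, were called in neither genotype. The oxidase subunits *Cybb* and *Ncf1* read 6.74 to 6.89 and 6.74 to 6.90 over all arrays, near background. Which cells the *Cyba* signal came from was not tested.

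Among the pan-leukocyte genes, *Laptm5*, a lysosomal membrane protein of blood cells, read 9.89 and 10.09 in WT controls, 9.94 and 9.88 in IL-33-deficient controls, 10.12 to 11.05 with a median of 10.35 in obstructed WT kidneys, and 11.07, 10.97, 10.89, 10.84 and 10.44 in obstructed IL-33-deficient kidneys. All obstructed kidneys exceeded the controls of their genotype, and WT array 3819 stood with the IL-33-deficient kidneys. *Laptm5* rose 1.91-fold in IL-33-deficient kidneys (0.93 ± 0.20, adjusted p = 0.00298), with 0.42 ± 0.19 in WT (adjusted p = 0.176).

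*Coro1a*, the leukocyte coronin that binds actin, read 7.64 and 7.73 in WT controls, 7.75 and 7.84 in IL-33-deficient controls, 7.90 to 8.66 with a median of 8.15 in obstructed WT kidneys, and 8.76, 8.65, 8.69, 8.50 and 8.29 in obstructed IL-33-deficient kidneys. Again no obstructed kidney overlapped its controls. *Coro1a* rose 1.43-fold in WT (0.51 ± 0.15, adjusted p = 0.0339) and 1.72-fold in IL-33-deficient kidneys (0.78 ± 0.16, adjusted p = 0.00232).

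*Ptprc*, which encodes CD45, the phosphatase carried by all nucleated blood cells, lay near background, at 6.76 to 6.92 over all 16 arrays. It read 6.85 and 6.86 in WT controls, 6.82 and 6.85 in IL-33-deficient controls, a median of 6.82 in obstructed WT kidneys, and 6.84, 6.84, 6.92, 6.85 and 6.82 in obstructed IL-33-deficient kidneys. It was not called in either genotype (WT -0.03 ± 0.04, IL-33-deficient 0.01 ± 0.04). *Lcp1*, the actin bundler plastin 2, and *Plek*, the kinase substrate pleckstrin, were not called either, *Lcp1* with 0.41 ± 0.15 in IL-33-deficient kidneys (adjusted p = 0.0617).

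**Figure D3:**
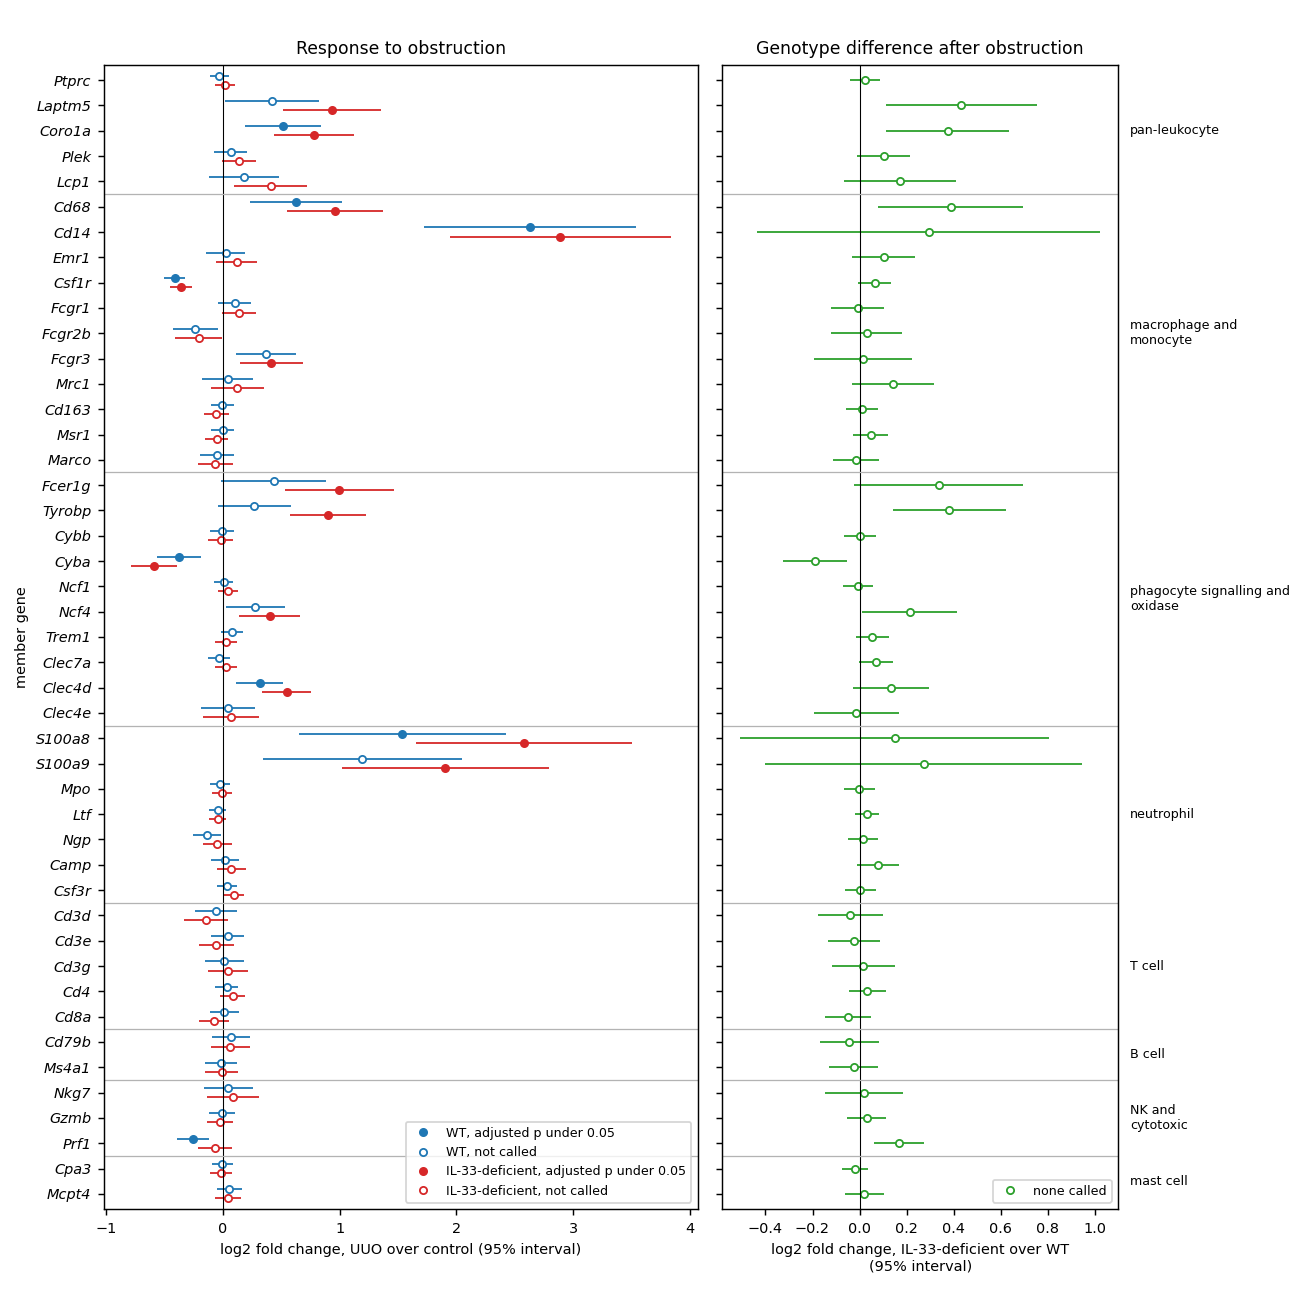
Points give the log2 fold change of each member after UUO against the controls of its genotype (left) and of IL-33-deficient over WT obstructed kidneys (right), with bars for the unadjusted 95% interval, and filled points mark an adjusted p under 0.05. On the left, filled points lie among the myeloid and pan-leukocyte genes, and the lymphocyte and mast cell genes sit near 0 apart from *Prf1*, while no point is filled on the right.

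None of 5 T cell, 2 B cell or 2 mast cell members was called in either genotype with limma, and none of these 9 had an unadjusted p under 0.05 (26% of all genes in WT and 30.7% in IL-33-deficient kidneys). Of these 9, only *Cd3d* and *Cd3g* were brighter than the median gene. In limma 46.2% and 54.1% of all brighter genes had an unadjusted p under 0.05, and 1 of the 23 dimmer members (4.35%) in each genotype. *Cd3e*, a chain of the T cell receptor complex, read 7.02 and 6.93 in WT controls, 7.03 and 7.07 in IL-33-deficient controls, 6.86 to 7.15 with a median of 7.02 in obstructed WT kidneys, and 7.02, 7.02, 7.03, 6.95 and 6.95 in obstructed IL-33-deficient kidneys (WT 0.04 ± 0.07, IL-33-deficient -0.06 ± 0.07). *Cd79b*, a signalling chain of the B cell receptor, read 6.94 and 7.01, 7.0 and 6.87, 6.91 to 7.17 with a median of 7.06, and 7.15, 6.87, 7.04, 6.99 and 6.93 in the same order of groups (0.07 ± 0.08 and 0.06 ± 0.08). Obstructed and control kidneys overlapped for both genes, except that the IL-33-deficient controls lay just above the obstructed kidneys for *Cd3e*.

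*Nkg7*, a granule membrane protein of killer cells, read 7.02 and 7.14 in WT controls, 7.08 and 7.04 in IL-33-deficient controls, 7.01 to 7.27 with a median of 7.11 in obstructed WT kidneys, and 7.01, 7.32, 7.39, 7.03 and 6.97 in obstructed IL-33-deficient kidneys (0.05 ± 0.10 and 0.09 ± 0.10). *Cpa3*, the mast cell carboxypeptidase, read 6.95 and 6.78, 6.84 and 6.86, 6.81 to 6.90 with a median of 6.85, and 6.88, 6.82, 6.79, 6.83 and 6.85 in the same order (-0.01 ± 0.04 in both genotypes). Since these genes lay at or near the level of dim probes, a small change in them was not detectable. *Prf1*, the pore-forming protein of cytotoxic cells, fell in WT kidneys.

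*Prf1* read 8.07 and 8.18 in WT controls, 8.12 and 8.09 in IL-33-deficient controls, 7.73 to 8.02 with a median of 7.87 in obstructed WT kidneys, and 7.96, 7.98, 7.98, 8.19 and 8.05 in obstructed IL-33-deficient kidneys. The WT groups were apart and the IL-33-deficient groups overlapped. The fall was 1.19-fold in WT (-0.26 ± 0.07, adjusted p = 0.0155), with -0.07 ± 0.07 in IL-33-deficient kidneys (adjusted p = 0.566).

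Whether the response differed by genotype was tested directly. No member passed in limma for the difference of the UUO responses, against 0% of all genes, and the smallest adjusted p among the members was 0.973. At an unadjusted p under 0.05 there was 1 member, *Tyrobp* (0.63 ± 0.21, 95% interval 0.18 to 1.08), against 4.74% of all genes. The difference was 0.51 ± 0.27 for *Laptm5*, 0.56 ± 0.30 for *Fcer1g*, 1.04 ± 0.60 for *S100a8* and 0.19 ± 0.09 for *Prf1*. The members that were called in only one genotype were therefore not shown to differ between genotypes. The response was more positive in IL-33-deficient kidneys for 32 of 45 members, against 50.7% of all genes.

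After UUO, IL-33-deficient and WT kidneys were also compared with each other over the 12 obstructed kidneys. No member passed at an adjusted p under 0.05, against 0.00552% of all genes, and none at the threshold in the study's methods (p under 0.05, adjusted p under 0.25, change above 1.3-fold), against 0.011%. All 7 obstructed WT kidneys were used here, whereas the contrast in the paper used fewer. Against the 4 WT kidneys of set 2, as many as in that contrast, 3 members passed the threshold (*Coro1a*, *Fcer1g* and *Laptm5*). How many of all genes passed with these arrays was not counted, so the 3 cannot be set against a background share. At an unadjusted p under 0.05 there were 7 members, against 10.3% of all genes. *Laptm5* (0.43 ± 0.15), *Cd68* (0.39 ± 0.14), *Tyrobp* (0.38 ± 0.11), *Coro1a* (0.37 ± 0.12), *Ncf4* (0.21 ± 0.09) and *Prf1* (0.17 ± 0.05) had the higher mean in IL-33-deficient kidneys and *Cyba* the lower (-0.19 ± 0.06). Their adjusted p values ran from 0.320 to 0.461. For *Cd14* the value was 0.29 with a 95% interval of -0.43 to 1.02, and for *S100a8* 0.15 with -0.51 to 0.81.

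The value was above 0 for 33 of 45 members, against 51.9% of all genes, and the median was 0.03 over the members and 0.0026 over all genes. No member had groups that did not overlap (0.756% of all genes). Within set 1 the mean of *Laptm5* was 10.51 in WT and 11.02 in IL-33-deficient kidneys, and within set 2 it was 10.34 and 10.72. *Tyrobp* had means of 7.78 and 8.24 in set 1 and of 7.83 and 8.16 in set 2. For *Cd14* the sets disagreed in sign, with means of 9.77 in WT and 10.97 in IL-33-deficient kidneys in set 1 and of 10.69 and 10.34 in set 2. In all, 0 members passed at an adjusted p under 0.05 in either set alone or with the set as a block. This comparison shares its arrays with both UUO responses above. Between the control kidneys of the genotypes 0 of 45 members were called in limma, and 0 had an unadjusted p under 0.05, against 3.66% of all genes. With 2 kidneys a group no gene at all was called (0%), so this test says little. *S100a8* had control means of 8.50 in WT and 7.60 in IL-33-deficient kidneys, a difference of -0.89 ± 0.52, which enters its difference of responses of 1.04.

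The order of kidneys within a genotype was alike over many members. Among the 11 members that rose in IL-33-deficient kidneys, WT array 3819 was the highest obstructed WT kidney in 8 and WT array 3820 the lowest in 8, and IL-33-deficient array 3899 was the lowest of its group in 10. These 11 were selected by their rise in IL-33-deficient kidneys, so levels of the genotypes are not compared over them. At the methods' threshold the comparison of genotypes after UUO gave 5 members without array 3819 (*Cd68*, *Coro1a*, *Fcer1g*, *Laptm5* and *Tyrobp*) and 2 without array 3899 (*Coro1a* and *Laptm5*). Shares of all genes were not counted for these fits.

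A further list of 73 leukocyte genes showed which others moved. In WT kidneys 8 of 73 (10.96%) were called, against 15.2% of all genes, with 8 higher (6.97% of all genes) and 0 lower (8.22%). In IL-33-deficient kidneys 20 of 73 (27.4%) were called, against 21.8%, with 20 higher (10.6%) and 0 lower (11.2%). Of the macrophage genes *Lgmn*, a lysosomal protease (1.17 ± 0.12 in WT and 1.35 ± 0.12 in IL-33-deficient kidneys), and *C1qa*, a chain of complement C1q (0.46 ± 0.12 and 0.71 ± 0.12), rose in both genotypes. *Lgmn* already had means of 12.42 in WT and 12.28 in IL-33-deficient controls, where *Cd68* had 7.12 and 7.18. Which cells the *Lgmn* signal came from was not tested. *Lyz2*, lysozyme of myeloid cells, rose in IL-33-deficient kidneys (1.50 ± 0.30, adjusted p = 0.00217), with 0.35 ± 0.29 in WT (adjusted p = 0.538). *C1qb* did likewise (1.11 ± 0.25 against 0.51 ± 0.24).

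Among the pan-leukocyte genes *Cd52*, a short surface glycoprotein, rose in IL-33-deficient kidneys (1.01 ± 0.24, with 0.53 ± 0.23 in WT). Of the neutrophil genes *Fpr2*, a receptor for formylated peptides, rose in both (0.34 ± 0.10 and 0.60 ± 0.10), *Retnlg* in WT (0.70 ± 0.21, with 0.60 ± 0.22 in IL-33-deficient kidneys, adjusted p = 0.0684), and *Il1b* in IL-33-deficient kidneys (0.82 ± 0.26). *Ccl5*, a chemokine of T and killer cells, rose in both (1.16 ± 0.36 and 1.15 ± 0.37), as did *Hdc*, the enzyme that makes histamine (0.35 ± 0.11 and 0.34 ± 0.11). *Mcpt2*, a mast cell protease, was called higher in WT (0.16 ± 0.05, with 0.04 ± 0.05 in IL-33-deficient kidneys). It lay near background in every group, with means of 6.71 in WT controls and 6.87 in obstructed WT kidneys. Its means were 6.88 in IL-33-deficient controls, level with obstructed WT kidneys, and 6.92 in obstructed IL-33-deficient kidneys. *Blnk*, a B cell signalling adaptor, rose in IL-33-deficient kidneys (0.50 ± 0.10, with 0.26 ± 0.09 in WT). None of 11 further T cell and 6 dendritic cell genes was called in either genotype with limma, and none of them reached an unadjusted p under 0.05. Of these, 2 T cell and 0 dendritic cell genes were brighter than the median gene. After UUO 0 of the 73 differed between genotypes in limma at an adjusted p under 0.05, and 13 (17.8%) had an unadjusted p under 0.05, against 10.3% of all genes.

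Genes through which leukocytes leave the blood were read as a list of 12. Of these, 2 (16.7%) were called in WT and 3 (25%) in IL-33-deficient kidneys, against 15.2% and 21.8% of all genes. *Icam1*, the endothelial ligand of leukocyte integrins, rose in both genotypes (1.29 ± 0.19 in WT and 1.48 ± 0.20 in IL-33-deficient kidneys). *Vcam1* (1.20 ± 0.31, with 0.42 ± 0.30 in WT) and *Selp*, the selectin of activated endothelium (0.37 ± 0.12, with 0.29 ± 0.11 in WT), rose in IL-33-deficient kidneys. *Icam2* fell in WT (-0.33 ± 0.09). None of the 5 leukocyte integrin and selectin genes was called with limma. An unadjusted p under 0.05 was found for 2 in WT and 1 in IL-33-deficient kidneys, against 26% and 30.7% of all genes.

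Markers of other cells moved alongside. The tubular injury genes *Havcr1* (5.78 ± 0.62 in WT and 6.52 ± 0.64 in IL-33-deficient kidneys) and *Lcn2*, which neutrophils also make (5.61 ± 0.36 and 5.91 ± 0.37), rose in both genotypes, and on the WT arrays after UUO *Havcr1* spanned 10.42 to 13.95. Of 5 red blood cell genes 1 fell in each genotype, *Slc4a1* (-2.17 ± 0.37 and -2.57 ± 0.38), which the kidney's intercalated cells also express, while *Hba-a1* had -1.03 ± 0.53 and -1.49 ± 0.55 and was not called. Of 3 platelet genes *Ppbp* rose in WT (0.26 ± 0.08) and *Itga2b* fell in IL-33-deficient kidneys (-0.22 ± 0.04). Of 7 kidney tissue genes 3 (42.9%) fell in WT and 4 (57.1%) in IL-33-deficient kidneys, against 8.22% and 11.2% of all genes. Their part in the leukocyte gene results was not tested.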

How the data were processed

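Kidney RNA was measured on Illumina MouseRef-8 v2 BeadChips, 1 array for each of 16 kidneys, and arrays were assigned to genotype, treatment and set from their labels. The authors read the arrays into R with beadarray, and the deposited values are linear intensities, 1 per gene symbol, for 18132 genes with no missing value. The submitters' processing notes name BeadStudio 2. The background correction, the normalization and the joining of probes into genes are not given in the sources used here, and the table carries no detection p-values. The lowest intensity, 95.5, is background, which compresses fold changes of dim genes. Precision is limited by how many arrays each group has. No 2 arrays held identical values. Nothing states litters or days for the animals, so p-values measure the spread between these kidneys, part of which may be technical.

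The 16 arrays were quantile-normalized together and log2-transformed. Linear models were fitted with limma 3.58.1 (lmFit, eBayes) under R 4.3.3, and p-values were adjusted by Benjamini-Hochberg across every gene measured. The UUO responses, the control kidneys and the difference of responses came from 1 model over the 4 groups, and IL-33-deficient against WT after UUO from the 12 obstructed kidneys. A gene was called at an adjusted p under 0.05. The methods' threshold was an additional rule. The fit was tested on simulated data. Summaries and plots used Python 3.11.15, numpy 2.4.6, scipy 1.17.1, pandas 2.3.3 and matplotlib 3.10.9.

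The members and gene lists were chosen with earlier results of these data known. Full values are given for the called members with the 3 largest changes of each class and for the defining marker of each class. *Fcgr3*, *Fcgr2b*, *Clec4d*, *Ncf4*, *Lcp1* and the genes of the further lists named for comparison were chosen after their values were seen. *Spi1* is listed under its older symbol *Sfpi1*, which was not counted as a member. Of the 45 members 44 matched a RefSeq symbol and 1 a synonym. Alternatives were no second quantile normalization, median centring, background subtraction, a variance trend, array weights, brighter genes only, each set alone, the set as a block, only the groups compared, the 4 groups in 1 model for the genotype comparison, and leaving out each array.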

Additional observations from a re-analysis of the deposited data

Results flagged for a closer look

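A search covered 40 sets of values, each 1 gene in 1 group of arrays, for a kidney far from the rest of its group. Chance gives about 1 in 20, and 7 were found. The sets share the same kidneys and are not independent, so this number does not measure an excess over chance. *Fcer1g* read 10.12 on WT array 3819 (next 9.52) and 9.24 on IL-33-deficient array 3899 (next 9.82). *Laptm5* read 11.05 on WT array 3819 (next 10.46). *S100a8* read 8.71 and *S100a9* 7.32 on WT array 3818, with the next kidneys at 10.01 and 8.76, and *Il33* read 8.39 on the same array (next 9.10). *Ptprc* read 6.92 on IL-33-deficient array 3897 (next 6.85), a gap near background.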

How the results depend on the processing

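The number of members called in WT kidneys was 8, and it was 1 with the UUO arrays of set 1 alone, where 3 kidneys remained, and 12 with those of set 2 alone. Leaving out 1 array at a time gave 3 to 9 in WT, the 3 without control array 3811 or 3812 (5 without array 3892), and 10 to 14 in IL-33-deficient kidneys, where the count was 13. Under the other alternatives the count was 6 to 11 in WT and 12 to 14 in IL-33-deficient kidneys. The control kidneys, the obstructed kidneys of the genotypes and the difference of responses gave 0 members throughout, 0 to 0 when 1 array was left out, and 0 with the set as a block. Leaving out both WT arrays 3818 and 3820, an alternative chosen after seeing the data, gave 11, 0 and 0 members for the WT response, the genotypes after UUO and the difference of responses.

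Of 533 values of single genes under an alternative, 490 kept their direction and call, 43 kept the direction and lost the call, and 0 reversed. *Csf1r* was called under all 26 alternatives in WT and all 25 in IL-33-deficient kidneys, and *Cd14* under all but the UUO arrays of set 1 alone in WT (adjusted p = 0.0755). *S100a8* lost its WT call in 4, and *S100a9* its call in IL-33-deficient kidneys in 2, 1 of them without control array 3814. At the methods' threshold the genotypes after UUO gave 2 members among brighter genes alone, 1 with the 4 groups in 1 model and 3 against the WT kidneys of set 2, and 0 in each set alone. Shares of all genes were counted for the main fits only, so counts under the alternatives have no background share beside them. No paired analysis was possible because the labels give the groups no shared replicate numbers. With 2 controls a genotype, and members near background, small changes could not be seen.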
